A study of Homo sapiens with 6 samples.

Results

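The genes described here are 10 of the 60612 genes of the deposited table: PRMT5 and its partners WDR77, CLNS1A and RIOK1, the methionine cycle genes MAT2A, MAT2B and AHCY, and MTAP, CDKN2A and CDKN2B, which lie side by side in band 9p21 of chromosome 9. They were chosen by function and position, not by a measured value, and rows without counts were kept. All 10 have a row, 8 passed the filter on low counts and were tested, and CDKN2A and CDKN2B did not pass it. The study sequenced RNA of U87 cells, an established human glioblastoma line, to compare cells in which PRMT6 was knocked down with control cells. The 3 control libraries (NC) came from U87 cells that received a scramble shRNA by lentivirus, and the 3 knockdown libraries (shPRMT6) from U87 cells that received an shRNA against PRMT6 in the same way, both grown in DMEM with fetal bovine serum. The methods call the 3 samples of each group independent replicates, of which shRNA of PRMT6 is not stated, and p-values measure the spread between these 6 libraries.

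PRMT5 is the main enzyme that puts symmetric methyl marks on arginine, while PRMT6 makes asymmetric ones, and both take the methyl group from S-adenosylmethionine (SAM). MAT2A makes SAM from methionine and ATP, MAT2B is its regulatory partner, and AHCY clears S-adenosylhomocysteine, the product that inhibits methyltransferases. MTAP breaks down methylthioadenosine, a by-product of polyamine synthesis that competes with SAM at PRMT5, and MTAP is often lost together with the neighbouring cell cycle inhibitor genes CDKN2A and CDKN2B in glioblastoma.

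The shRNA targets listed by the study are shown because 1 of them matches a gene of this set. The paper's captions name #2 and #3 in growth assays and #2 for mRNA of U87 cells. Which shRNA the sequenced cells received is not stated. The labels number the knockdown libraries 1 to 3 under the name shRNA, and the controls 1 to 3 under NC. They do not say whether the numbers of the knockdown libraries refer to #1 to #3. Capitals mark the bases that pair with bases 2 to 8 of the antisense strand, its seed.
shPRMT6 #1: gcccagtttgagaTGCCTTAt
shPRMT6 #2: caccggcattctgAGCATCTt
shPRMT6 #3: cacggacgtttcaGGAGAGAt
The target of shPRMT6 #1 was found without a mismatch in PRMT5 (chr14:22922815-22922835 of GRCh38, minus strand, exonic), in 9 of its 28 GENCODE 29 transcripts and within the coding sequence in 7 of these 9. Its closest stretch in PRMT6 transcripts had 7 mismatches. The targets of #2 (chr1:107056991-107057011) and #3 (chr1:107057717-107057737) lie in exon 1 of PRMT6 on the plus strand, and their closest stretches in PRMT5 transcripts had 9 and 7 mismatches. No other gene of this set holds a full target. The seed site of #2, AGCATCT, occurred in 14% of 18816 annotated 3′ UTRs of at least 50 bases (the strand of the transcript was searched) and, among the 10 genes, in that of MTAP only. GGAGAGA, the seed site of #3, occurred in 17.9% of 3′ UTRs and in those of CLNS1A, MTAP and CDKN2B. TGCCTTA, that of #1, occurred in 13% and in those of PRMT5 and MTAP. The 3′ UTR of MTAP has 6452 bases, the most of the 10 genes, and the occurrence of seed sites was not adjusted for length. A match of letters is not evidence of pairing in the cell.

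The libraries held 56388161 to 75887696 counts in NC and 61805330 to 67630740 in shPRMT6. PRMT6, the targeted gene, had 9.33, 7.97 and 7.19 CPM (counts scaled to the library size) in NC and 3.57, 4.58 and 5.24 in shPRMT6, so that every knockdown library lay below every control. It fell by 0.87 on the log2 scale (SE 0.187, adjusted p = 0.0225 by edgeR's quasi-likelihood test, which is used throughout with Benjamini-Hochberg adjustment over all genes tested). Without NC replicate 1, shPRMT6 replicate 1 or shPRMT6 replicate 2 the adjusted p rose to 0.0613, 0.0588 and 0.0713. Over all genes, 3362 of 18106 passed an adjusted p of 0.05, which is 18.6% (9.51% higher and 9.06% lower in shPRMT6), and 40.2% had CPM ranges that did not overlap between the groups. Leaving out NC replicate 3 lowered this count to 1939, and leaving out shPRMT6 replicate 1, 2 or 3 lowered it to 1871, 1755 or 1858. Of the markers for the labelled cell type, VIM, NES, CD44 and FN1 were abundant and OLIG2 was present, GFAP had 11 to 60 counts, SOX2 0 to 26 and S100B 0 in every library. FN1 was called lower in shPRMT6 (log2 fold change -0.72, adjusted p = 0.00246) and the other 6 tested were not called, and the summed CPM of the 8 was 11054 to 11759 in NC and 9516 to 10251 in shPRMT6. Of the haematopoietic markers, PTPRC and CD14 had at most 4 counts in any library and CD3E none, while CD68, a lysosomal protein, had 9181 to 20112 and was not called (summed CPM of the 4, 148 to 256 in NC and 144 to 316 in shPRMT6). Of the endothelial markers, CDH5 had at most 4 counts, VWF 0 to 47, KDR 297 to 1128 and PECAM1 159 to 219 in NC and 248 to 331 in shPRMT6 (adjusted p = 0.0544), and none was called (summed CPM 8.94 to 17.8 and 16.6 to 17.6). The summed CPM of the 4 epithelial markers was 13.3 to 19.7 in NC and 3.6 to 9.69 in shPRMT6, with CDH1 and KRT8 of the 4 called lower and EPCAM and KRT18 not called, and the part of these marker differences in the results below was not tested.

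**Figure D1:**
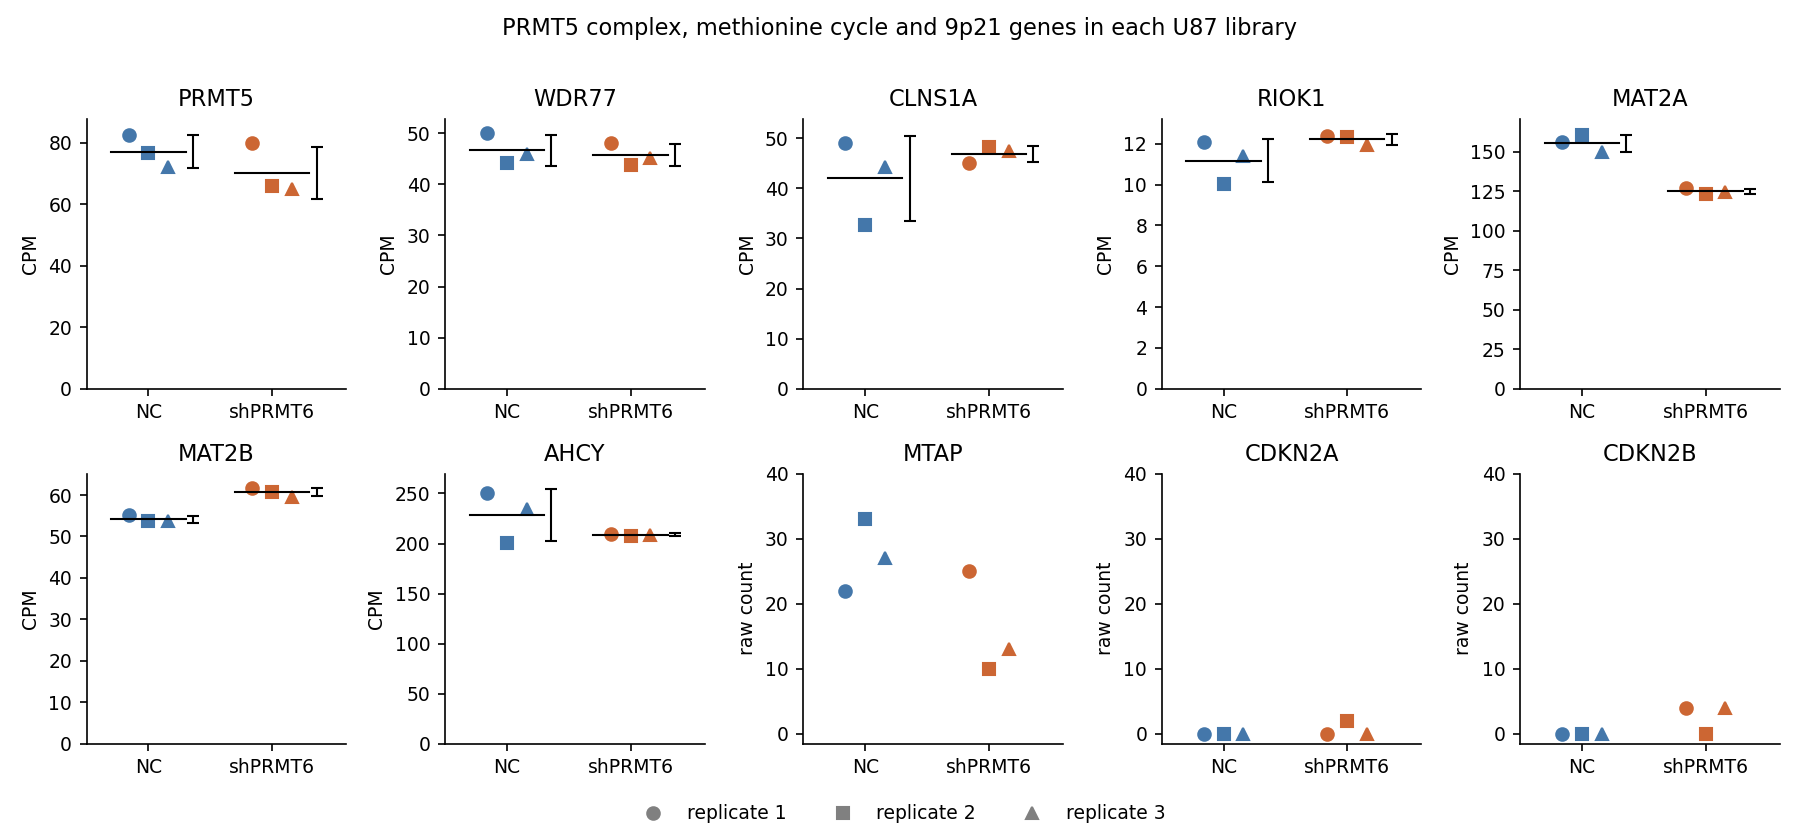
Level of each of the 10 genes in each library: CPM for PRMT5, WDR77, CLNS1A, RIOK1, MAT2A, MAT2B and AHCY, and raw counts for MTAP, CDKN2A and CDKN2B. Each point is a library, its shape gives the replicate number, horizontal lines are means and vertical bars SD (n = 3). The groups are apart for MAT2A (lower in shPRMT6) and MAT2B (higher), MTAP is at 33 counts or fewer, and CDKN2A and CDKN2B are at 0 in every NC library.

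Of the 8 genes tested, 1 passed an adjusted p of 0.05, MAT2A, which was lower in shPRMT6. None was higher. Of all tested genes 18.6% passed, so 1 of 8 is not above that share. At an unadjusted p under 0.05, 2 of the 8 passed (MAT2A and MAT2B), beside 32.6% of all tested genes, and at the threshold of the methods, an unadjusted p under 0.05 with an absolute log2 fold change over 1, 0 of the 8 passed, beside 5.92%. CPM ranges of 3 of the 8 (MAT2A, MAT2B and MTAP) did not overlap between the groups, where 40.2% of all tested genes showed this. The median log2 fold change of the 8 was -0.08, beside -0.01 over all tested genes. By transcript length, in FPKM, the order of the mean levels in NC was AHCY (49.4), MAT2A (29.2), PRMT5 (19.8), WDR77 (14.6), MAT2B (8.87), CLNS1A (7.70) and RIOK1 (3.19), with MTAP at 0.0233. Ranges over the 3 NC libraries overlapped for MAT2B and CLNS1A but not for the other neighbours among the first 7.

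**Figure D2:**
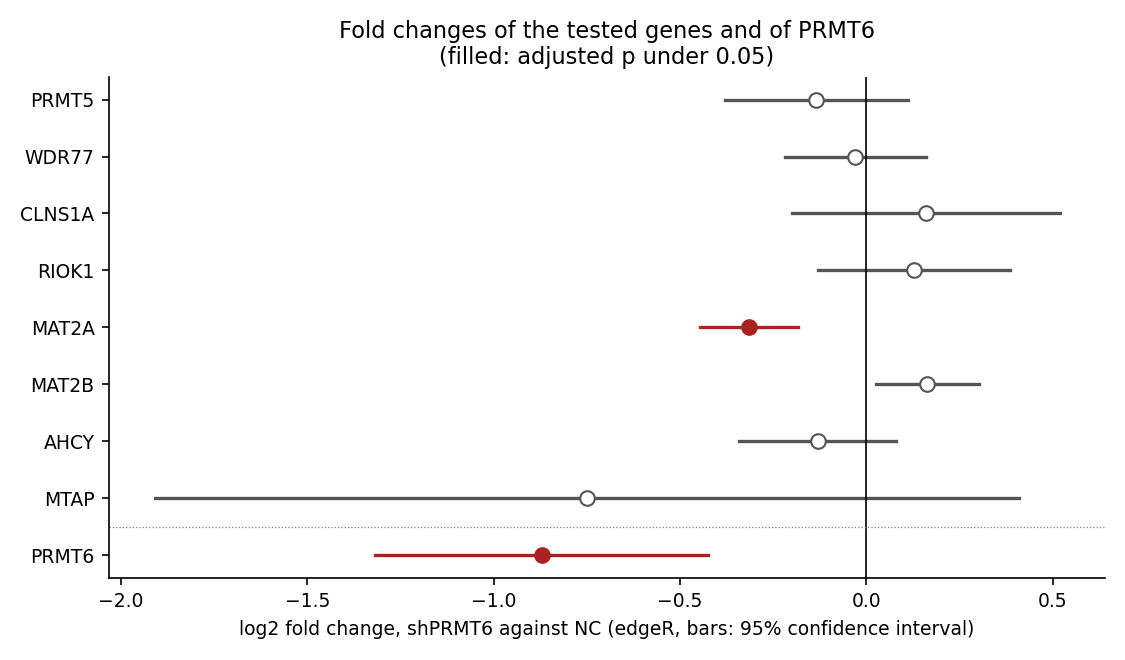
Log2 fold change in shPRMT6 against NC for the 8 tested genes and for PRMT6, with 95% confidence intervals from edgeR (3 libraries a group); filled red points passed an adjusted p of 0.05. MAT2A at -0.31 and PRMT6 at -0.87 are filled, and the interval of MTAP, which has few counts, is the widest.

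No gene of the PRMT5 complex passed the test. PRMT5 (ENSG00000100462), the catalytic subunit, had 82.6, 76.7 and 72.1 CPM in NC and 80.0, 66.0 and 64.8 in shPRMT6. The first knockdown library lay inside the control range and the other two below it. The log2 fold change was -0.13 (95% interval -0.38 to 0.11, adjusted p = 0.424). PRMT5 forms an octamer with WDR77 (ENSG00000116455), a WD-repeat protein (MEP50). WDR77 had 49.98, 44.1 and 45.8 CPM in NC and 48.1, 43.8 and 45.2 in shPRMT6, with ranges that overlapped nearly in full. Its log2 fold change was -0.03 (95% interval -0.22 to 0.16, adjusted p = 0.839). The annotation places a read-through gene on the same strand that shares 20.8% of the 75-base stretches of WDR77, and ATP5PB overlaps it on the opposite strand, so its count may include reads of these or lack its own.

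CLNS1A and RIOK1 are the adaptors that compete for PRMT5 and bring it to different substrates, Sm proteins in the case of CLNS1A (pICln) and ribosome assembly factors in that of RIOK1. CLNS1A had 49.0, 32.6 and 44.3 CPM in NC and 45.0, 48.2 and 47.5 in shPRMT6. NC replicate 2 stood well below the other 5 libraries, which lay close together. On the log2 scale the difference was 0.16 (SE 0.150, adjusted p = 0.517), and it was 0.0060 without NC replicate 2 and 0.28 without NC replicate 1. RIOK1 had 12.1, 10.01 and 11.4 CPM in NC and 12.4, 12.3 and 11.9 in shPRMT6, again with NC replicate 2 lowest and with ranges that overlapped, and a log2 fold change of 0.13 (SE 0.108, adjusted p = 0.465), which was 0.055 without that library. COPRS, the adaptor that takes PRMT5 to histones, was at 0.18 (SE 0.144, adjusted p = 0.449). None of the 5 genes of the complex and its adaptors was called, where 18.6% of all tested genes were, so that 0 of 5 is no result about the complex. Their median log2 fold change was 0.13, beside -0.01 over all tested genes. The FPKM ratio of PRMT5 to WDR77 was 1.35 ± 0.0675 (SD, n = 3) in NC and 1.26 ± 0.0955 in shPRMT6, with overlapping ranges (exact permutation test, two-sided, p = 0.3), and ratios of PRMT5 to RIOK1 (6.23 ± 0.607 and 5.17 ± 0.562, p = 0.2) and to CLNS1A (2.64 ± 0.564 and 2.10 ± 0.329, p = 0.3) overlapped too in the same exact test.

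The Sm proteins, which carry much of the symmetric arginine methylation made by PRMT5, and the SMN complex that loads them onto snRNA were counted in a list of 21 genes, all tested. The list also holds the related genes COIL, LSM4, LSM10 and LSM11. SMN1 and SMN2 count as separate genes, though 81.9% and 86.1% of their 75-base stretches are shared between them. Of the 21 genes, 4 fell, 1 rose and 16 did not pass (median log2 fold change -0.16). Over all tested genes 18.6% passed and the median was -0.01, so 5 of 21 is near that share. SNRPB (SmB), 1 of the Sm proteins methylated by PRMT5, had 146, 116 and 138 CPM in NC and 90.3, 84.5 and 79.5 in shPRMT6. Every knockdown library lay below every control, a fall by 0.65 on the log2 scale (SE 0.101, adjusted p = 0.00751). SNRPD3 (SmD3), another substrate, had 112, 118 and 110.4 CPM in NC and 93.2, 91.8 and 90.8 in shPRMT6 (log2 fold change -0.30, SE 0.0551, adjusted p = 0.0127), and SNRPF, which is part of the same ring, fell by 0.53 on the log2 scale (SE 0.0855, adjusted p = 0.00853). GEMIN5, the subunit that recognises snRNA, fell by 0.41 (SE 0.0919, adjusted p = 0.0269), and GEMIN8 rose by 0.52 (SE 0.118, adjusted p = 0.0276). SNRPD1, the third Sm protein known as a PRMT5 substrate, was at -0.09 (adjusted p = 0.712). SNRPB and SNRPF kept their calls with any 1 library left out. SNRPD3 lost its call without shPRMT6 replicate 1, 2 or 3 (adjusted p = 0.0525, 0.0620 and 0.0596), GEMIN5 in 5 of 6 such fits (0.0565 to 0.0960 without NC replicate 2 or 3 or any shPRMT6 library) and GEMIN8 in all 6 (0.0520 to 0.0997), and with 1 of NC replicate 2, NC replicate 3 or the 3 shPRMT6 libraries left out 3, 3, 2, 2 and 2 genes of the list passed. The annotation gives SNRPB a same-strand partner that shares 13.6% of its 75-base stretches, and SNRPD3 1 (GGT1) that shares 8.72%.

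MAT2A (ENSG00000168906, chromosome 2, plus strand) was the only gene of the 10 that passed the test. It had 156, 161 and 149.7 CPM in NC and 127, 123 and 125 in shPRMT6. The 3 knockdown libraries lay within 5 CPM of each other and all below the lowest control. The mean in shPRMT6 was 80.4% of that in NC (155 ± 5.52 and 125 ± 1.79 CPM, SD, n = 3), a log2 fold change of -0.31 (SE 0.0544, 95% interval -0.44 to -0.18, edgeR adjusted p = 0.0107). On the FPKM scale it was at 29.2 ± 0.903 and 23.6 ± 0.346. The exact permutation test over the 6 libraries gave p = 0.1, the smallest it can give with 3 against 3. Without shPRMT6 replicate 2 the adjusted p was 0.0565 at a log2 fold change of -0.30, and with any of the other 5 libraries left out it was 0.0204 to 0.0495. In bulk RNA, fewer cells of a kind and less RNA per cell cannot be told apart. GGCX overlaps MAT2A on the opposite strand, and use of strand in counting is not given in the sources used here.

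METTL16 is known to bind hairpins in the 3′ UTR of MAT2A, at a sequence written TACAGANAA in DNA letters, and to set the splicing and stability of this mRNA with the supply of SAM. The sites are shown because no other gene had as many in the 3′ UTRs searched. These were the longest annotated 3′ UTR of each protein-coding gene, if of at least 50 bases. Capitals mark the motif, each line has 29 bases, and all lie in the 3′ UTR of transcript MAT2A-201 (1508 bases) on the plus strand of chromosome 2 in GRCh38, from chr2:85543802-85543830 for site 1 to chr2:85545112-85545140 for site 6.
MAT2A site 1: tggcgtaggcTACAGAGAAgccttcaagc
MAT2A site 2: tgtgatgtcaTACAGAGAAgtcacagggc
MAT2A site 3: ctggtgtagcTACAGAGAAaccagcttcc
MAT2A site 4: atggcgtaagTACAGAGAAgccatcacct
MAT2A site 5: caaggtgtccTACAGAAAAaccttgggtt
MAT2A site 6: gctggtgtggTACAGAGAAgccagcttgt
The motif occurred in 6.45% of the 18816 3′ UTRs, 6 times in MAT2A and once in CDKN2B, and in none of the other 8 genes of the set. Beside each of the 6 sites, 4 to 6 of the bases after the motif had their exact reverse complement in the 10 bases before it. METTL16 itself had 24.1, 26.4 and 26.1 CPM in NC and 28.7, 18.5 and 14.1 in shPRMT6. Its first knockdown library was the highest of all 6 and the other two were the lowest (log2 fold change -0.32, SE 0.247, adjusted p = 0.421). MAT2A was near the same level in these 3 knockdown libraries, and a link between METTL16 and MAT2A was not tested.

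MAT2B (ENSG00000038274), the regulatory subunit of the enzyme, had 55.1, 53.6 and 53.8 CPM in NC and 61.6, 60.8 and 59.6 in shPRMT6. All knockdown libraries lay above all controls, in the direction opposite to MAT2A, and the log2 fold change of 0.16 (SE 0.0575, 95% interval 0.03 to 0.30) had an unadjusted p of 0.0265 in edgeR and did not pass after adjustment (adjusted p = 0.101). The FPKM ratio of MAT2A to MAT2B was 3.25, 3.43 and 3.19 in NC and 2.36, 2.33 and 2.39 in shPRMT6. The groups did not overlap, with means of 3.29 ± 0.127 and 2.36 ± 0.0342 (SD, n = 3; exact permutation test, two-sided, p = 0.1, the smallest possible). With MAT2A lower and MAT2B higher in every knockdown library, the ratio had to separate. Its separation and this p are thus no separate result. MAT1A, the form of the enzyme found in liver, had 0 counts in all 6 libraries.

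**Figure D3:**
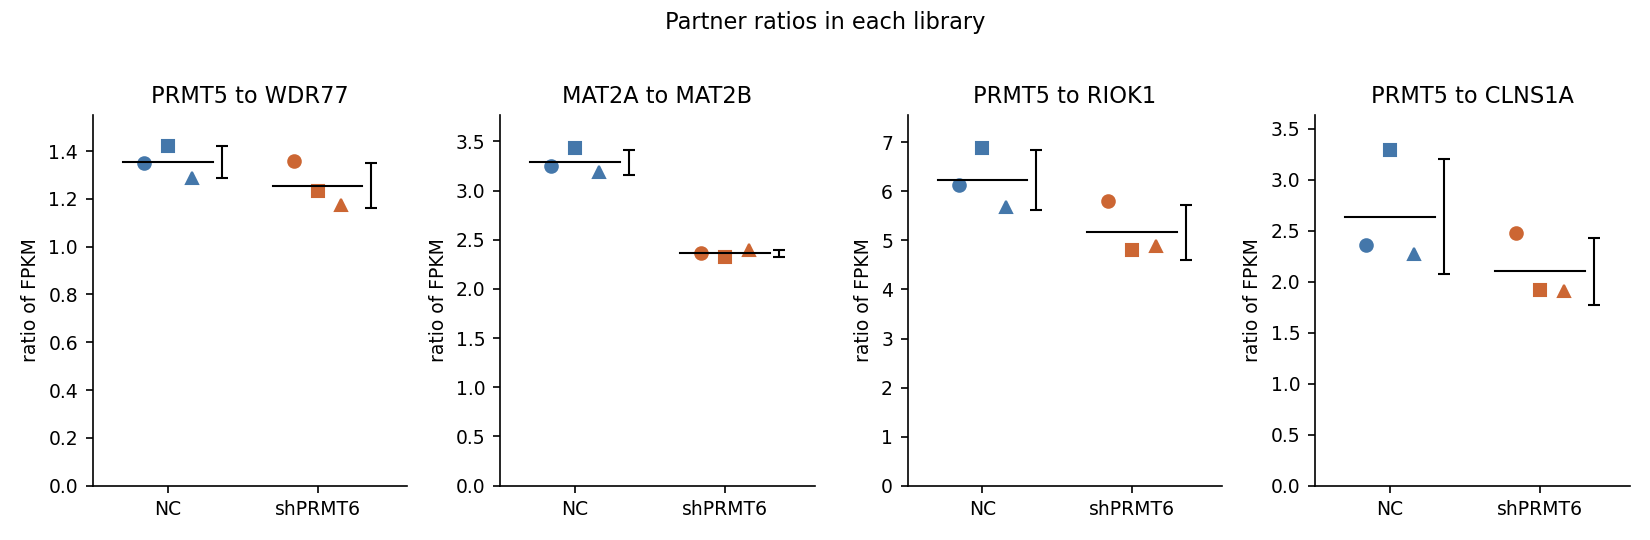
FPKM ratios within each library for PRMT5 to WDR77, MAT2A to MAT2B, PRMT5 to RIOK1 and PRMT5 to CLNS1A; circles, squares and triangles are replicates 1, 2 and 3, horizontal lines are means and vertical bars SD (n = 3). The ratio of MAT2A to MAT2B is apart between NC (3.19 to 3.43) and shPRMT6 (2.33 to 2.39), and the other ratios overlap. This separation follows from those of MAT2A and MAT2B, which go in opposite directions.

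AHCY (ENSG00000101444), the most abundant gene of the set, had 250.6, 200.04 and 235 CPM in NC and 209.8, 207 and 209 in shPRMT6. NC replicate 2 lay below the knockdown libraries and the other controls above them. On the log2 scale the difference was -0.13 (SE 0.0877, adjusted p = 0.359), and without NC replicate 2 it was -0.22 and passed the test (adjusted p = 0.0443). Of the 14 genes counted in the methionine cycle list, 11 were tested, 2 fell, 1 rose and 8 did not pass (median log2 fold change 0.16), beside 18.6% that passed and a median of -0.01 over all tested genes. Beside MAT2A, AHCYL1 fell by 0.56 on the log2 scale (SE 0.0636, adjusted p = 0.00257). AHCYL1 resembles AHCY in sequence but is known as a regulator of calcium channels (IRBIT), not as a hydrolase. The gene that rose belongs to the step that returns homocysteine to methionine. This gene, BHMT2, a homocysteine methyltransferase, had 7.40, 7.34 and 6.33 CPM in NC and 11.6, 11.4 and 12.1 in shPRMT6, with no overlap (log2 fold change 0.74, SE 0.111, adjusted p = 0.0067). Of this list 5 genes passed without NC replicate 2 (2 higher and 3 lower), and DESeq2 called 5 (3 higher and 2 lower).

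Methionine and SAM reach the cycle through transporters, and this list of 6, with METTL16 among them, had 2 genes that fell, none that rose and 4 that did not pass. Its median log2 fold change was -0.79, beside -0.01 over all tested genes, of which 18.6% passed and 9.06% were lower. SLC43A1 and SLC43A2, which enter this median at -1.12 and -1.05, had at most 100 counts in any library and were not called. SLC7A5 (LAT1), which carries methionine and other large neutral amino acids into the cell, had 222, 208 and 231 CPM in NC and 72.7, 71.3 and 79.3 in shPRMT6. The knockdown level was 33.8% of the control level with no overlap (log2 fold change -1.56, SE 0.0707, adjusted p = 0.000211), and the call held with any 1 library left out. SLC3A2, the heavy chain that SLC7A5 needs at the membrane, had 111, 128 and 136 CPM in NC and 85.3, 79.1 and 96.8 in shPRMT6 (-0.52, SE 0.107, adjusted p = 0.0195). Without NC replicate 3 or shPRMT6 replicate 1 or 2 its adjusted p was 0.0654, 0.0710 and 0.0704, and 1 gene of the list passed. SLC25A26, the carrier that takes SAM into mitochondria, was at -0.21 (adjusted p = 0.211).

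MTAP (ENSG00000099810, chr9:21802543-21937651, plus strand) had a trace of counts: 22, 33 and 27 in NC and 25, 10 and 13 in shPRMT6. All 3 NC libraries and the first knockdown library lay near 0.4 CPM and the other 2 knockdown libraries lower. In CPM the values were 0.393, 0.434 and 0.433 in NC and 0.393, 0.162 and 0.192 in shPRMT6, so that the groups met at 0.393 to 3 digits. The log2 fold change was -0.75 with a wide interval (-1.91 to 0.41, SE 0.485, adjusted p = 0.338). Over the group the raw counts made 0.422 CPM (exact Poisson 95% interval 0.336 to 0.524) in NC and 0.248 (0.183 to 0.329) in shPRMT6, intervals that cover counting error only. In each library 1240 to 1399 genes had a count of 4 but 398 to 421 a count of 3, so that low counts may not be independent reads and these intervals may be too narrow. Of its 75-base stretches, 6.67% occur in other transcripts, mostly those of ERVFRD-3, which overlaps it on the same strand, as does ENSG00000264545, which had 0 counts in all libraries. The MTAP level of 0.0233 ± 0.00197 FPKM in NC (SD, n = 3) stood against 19.8 for PRMT5 and 29.2 for MAT2A.

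The other enzymes of methionine salvage, which turn the product of MTAP back into methionine, were all well above this level, and none of the list of 5 with MTAP passed the test (median log2 fold change -0.25), where 18.6% of all tested genes passed (median -0.01). MRI1, APIP and ENOPH1 had log2 fold changes of -0.25, -0.11 and -0.26 (adjusted p = 0.169, 0.332 and 0.114). ADI1, which makes the precursor of methionine in the last step but one, had 73.4, 65.0 and 30.5 CPM in NC and 82.4, 99.4 and 95.4 in shPRMT6, with NC replicate 3 far below the other controls (0.71, SE 0.305, adjusted p = 0.16), and DESeq2 called it (adjusted p = 0.0333). Of the 11 polyamine genes 10 were tested, 1 rose, 2 fell and 7 did not pass (median -0.14), beside the same 18.6% and -0.01 over all tested genes. SAT1, which acetylates polyamines for export, had 135, 116 and 119 CPM in NC and 169, 167.7 and 174 in shPRMT6 (0.47, SE 0.0716, adjusted p = 0.00714). OAZ1, the antizyme that sends ODC1 to degradation, fell by 0.46 on the log2 scale (SE 0.0633, adjusted p = 0.00502), and AZIN1, the inhibitor of antizyme, by 0.26 (SE 0.068, adjusted p = 0.0404). SAT1 and OAZ1 kept their calls with any 1 library left out, and AZIN1 lost its call in all 6 such fits (0.0551 to 0.135). The enzymes that make polyamines did not pass: ODC1, AMD1, SRM and SMS had log2 fold changes of 0.09, -0.16, -0.08 and -0.12 (adjusted p = 0.32, 0.776, 0.646 and 0.139). AMD1, which makes the aminopropyl donor whose use releases methylthioadenosine, ranged from 68.2 to 128 CPM within NC and from 53.8 to 96.8 within shPRMT6.

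CDKN2A (ENSG00000147889, chr9:21967753-21995301, minus strand), which encodes the cell cycle inhibitors p16INK4a and p14ARF, had 0 counts in 5 libraries and 2 in shPRMT6 replicate 2. CDKN2B (ENSG00000147883, chr9:22002903-22009363, minus strand), which encodes p15INK4b, had 0 in the 3 NC libraries and 4, 0 and 4 in shPRMT6. Neither gene had more than 4 counts in any library, and no fold change is given. A count of 0 over the 3 NC libraries together allows up to 0.0155 CPM (3 counts of the group total). The exact Poisson 95% interval of such a count reaches 0.0190 CPM. In shPRMT6, CDKN2A stood at 0.0103 CPM (exact Poisson 95% interval 0.00125 to 0.0374) and CDKN2B at 0.0414 (0.0179 to 0.0815). By this interval NC and shPRMT6 overlap for both genes. These limits cover counting error only, and they may be too narrow because low counts came in steps, as given below. The antisense gene CDKN2B-AS1 (ANRIL), whose exons overlap those of CDKN2A, had 4 to 8 counts in each library. Of the related INK4 genes, CDKN2C (p18) had at most 8 counts, and CDKN2D (p19) had 1935, 2398 and 232 counts in NC and 1602, 104 and 1683 in shPRMT6, so that 1 library in each group stood far below the others (log2 fold change -0.43, adjusted p = 0.821).

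The low counts of MTAP, CDKN2A and CDKN2B extended to their neighbours. Within 3 Mb of CDKN2A the closest genes whose mean FPKM reached 1 were RPS6, a ribosomal protein gene 2.62 Mb to the left, and CLIC4P1, 0.752 Mb to the right, which is a processed pseudogene that shares 25.2% of its 75-base stretches with CLIC4. Wholly between them lie 76 genes, of which 56 had 0 counts in all 6 libraries. Of the 27 protein-coding ones, 17 (63.0%) had 0 counts in all libraries, compared with 19.1% of the 19874 protein-coding genes of the table, and 15 of these 17 are interferon genes, which form a cluster of 16 there and which most cells transcribe only on induction. Because the boundaries are the nearest genes that reach a mean FPKM of 1, every gene between them is below 1 by choice. A share at 0 above that of the whole table follows in part from this choice and is no separate result. A narrower stretch was bounded after its values were seen, by the nearest genes on each side with a mean of 0.1 FPKM or more, SLC24A2 and CLIC4P1. The space between these 2 genes is 2.96 Mb (chr9:19786929-22747699), and 69 genes lie wholly within it. Their highest count in any library was 39, in KLHL9, and their summed counts were 78, 119 and 106 in NC and 107, 122 and 129 in shPRMT6, which is 1.38 to 1.97 CPM in all libraries. The 2 further genes that cross its right end, LINC01239 and ENSG00000284418, had at most 4 counts in any library.

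In this region 7 genes between RPS6 and CLIC4P1 were tested and none passed. Of all tested genes 18.6% passed, so that 0 of 7 is no result about the region. Besides MTAP these were ACER2, ENSG00000260912, SLC24A2, MLLT3, FOCAD and KLHL9. SLC24A2, an ion exchanger, was the most abundant of them with 611, 1041 and 802 counts in NC and 628, 670 and 371 in shPRMT6 (log2 fold change -0.52, SE 0.259, adjusted p = 0.222). ACER2, a ceramidase, was lower in each knockdown library (12, 46 and 42 counts) than in each control (82, 112 and 76) at an adjusted p of 0.0953, and was called by DESeq2 (adjusted p = 0.043). Among all tested genes, 40.2% had CPM ranges that did not overlap between the groups. FOCAD and KLHL9, which lie nearer to MTAP, had 8 to 27 and 8 to 39 counts, and MLLT3 had 4 to 30. On the other side of CDKN2B, DMRTA1 had 0 to 4 counts, and ELAVL2, beyond the pseudogene, 94 to 303.

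The genes whose pattern over the 6 libraries was most like that of MAT2A, by the Euclidean distance between centred log2 CPM among 10044 genes, were SNRPD3 (0.0365), CYC1 (0.0530) and ANKMY2 (0.0626). SNRPD3 is the Sm protein described above. CYC1, cytochrome c1 of the respiratory chain, had 125, 130.1 and 122 CPM in NC and 99.7, 100.1 and 98.1 in shPRMT6 (log2 fold change -0.34, SE 0.0543, adjusted p = 0.00822), a call that held with any 1 library left out. ANKMY2 had 48.5, 48.7 and 47.5 CPM in NC and 40.6, 38.2 and 39.1 in shPRMT6 (-0.30, SE 0.0641, adjusted p = 0.0232), and lost its call in 5 of the 6 fits without 1 library (adjusted p = 0.0524 to 0.0984 without NC replicate 1 or 3 or any shPRMT6 library). As in MAT2A, the 3 libraries of each group lay close together in all 3 genes and the groups did not overlap. The distance was measured in the same libraries as the fold changes, so the likeness includes the difference between the groups. The closeness within groups, their separation and the fold changes thus follow from the choice of genes and are no separate result.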

How the data were processed

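The labels name Trizol for RNA extraction and the methods an RNeasy kit. The submitters' processing notes name GRCh38, HISAT2 and HTSeq 0.13.5, while the tool for FPKM and the use of strand are not given in the sources used here. The authors deposited raw read counts per gene, without normalization, for the 6 libraries. They also deposited FPKM values, scaled to gene length and library size, with 1e-04 in place of 0. Counts were scaled by TMM, filtered by filterByExpr and tested with the quasi-likelihood test of edgeR 4.0.16 in R 4.3.3, with condition as the only term. CPM per library and SD over 3 libraries are given, and CDKN2A and CDKN2B were not tested. Levels between genes and ratios used FPKM. Alternatives were DESeq2 1.42.0, no scaling, other filters, limma 3.58.1 on log2(FPKM + 1 or 0.1), a replicate block, the threshold of the methods and each library left out. Transcripts, 3′ UTRs and overlaps were taken from GENCODE 29 on GRCh38, where 58394 of the 60612 identifiers matched.

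Beside the 10 genes and PRMT6, the text names every gene past an adjusted p of 0.05 in each list (at most 5, by p), 10 enzymes and adaptors whatever their p, genes between the nearest neighbours of CDKN2A that reach a mean FPKM of 1, and the 3 genes nearest to the profile of the gene with the smallest p. Other names were chosen after their values were seen. A gene of the methionine cycle list is not reported here, and the counts and median of that list leave it out. The genes, lists and rule were chosen with earlier results of these data known.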

Additional observations from a re-analysis of the deposited data

How the results depend on the processing

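Over the alternatives, 534 of 603 comparisons of a named gene with its reported value kept direction and side of the threshold, 59 lost the call, 4 gained it and 6 turned direction. MAT2A was lower in all 16 alternatives (log2 fold change -0.34 to -0.29). Replicate numbers did not pair the libraries (correlations of deviations of -0.0583 to -0.00776 for equal numbers, and 0 of 3 NC libraries correlated best with their own number). With a replicate block 1858 genes passed and 0 of the 10, MAT2A having an adjusted p of 0.0502. Under the threshold of the methods 1072 genes passed and 0 of the 10, since no tested gene of the set had an absolute log2 fold change over 1. With 1 library left out, 1755 to 3183 genes and 0 to 2 of the 10 passed, 0 without shPRMT6 replicate 2 (MAT2A lost) and 2 without NC replicate 2 (AHCY gained). In the same fits the log2 fold change of WDR77 ran from -0.068 to 0.0204, of AMD1 from -0.32 to 0.20, of SRM from -0.15 to 0.018 and of FOCAD from -1.14 to 0.16, and the sign turned for WDR77 without NC replicate 1 or shPRMT6 replicate 2, for AMD1 without NC replicate 2 or shPRMT6 replicate 1, and for SRM and FOCAD without NC replicate 1. None of these 4 was called in any fit, and the cause was not tested. MAT2B did not pass in any of the 16 alternatives (adjusted p 0.0530 to 0.252). Dividing counts by 4, an alternative chosen after seeing the data, gave 3655 genes and 1 of the 10. MTAP, CDKN2A and CDKN2B rested on 33 counts or fewer per library and the other 7 genes on 677 or more, so that depth limits the first 3.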

Other observations

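Low counts came in steps. In each library a count of 4 was found for 1240 to 1399 genes, of 3 for 398 to 421 and of 5 for 223 to 269, and a count of 8 for 674 to 739, of 7 for 243 to 293 and of 9 for 141 to 171. CDKN2B, CDKN2B-AS1 and IFNE had most of their counts above 0 at 4 or 8. A limit from 3 counts would be larger where 4 counts come from 1 read, and how the counts of 4 arose was not tested.

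Several genes of the lists jumped in a library against the others of its group. CDKN2D had 232 counts in NC replicate 3 and 104 in shPRMT6 replicate 2, but 1602 to 2398 in the other 4 libraries. ADI1 had 1902 counts in NC replicate 3 and 4105 to 6461 elsewhere. LSM4, a relative of the Sm proteins, had 2442 counts in shPRMT6 replicate 1 and 5494 to 8158 in the others, and CBS, which leads homocysteine out of the cycle and shares 52.3% of its 75-base stretches with a copy, had 0 and 7 counts in replicate 1 of shPRMT6 and NC and 39 to 52 in the others.

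Beyond the methionine transporters that were called, SLC43A1 and SLC43A2, which carry the same kind of amino acids, had lower counts in each knockdown library (22 to 54 and 23 to 46) than in each control (72 to 100 and 62 to 72), at adjusted p values of 0.0903 and 0.11 in edgeR. NNMT, which spends SAM on nicotinamide, had 264 to 354 counts in shPRMT6 and 195 to 228 in NC (log2 fold change 0.54, adjusted p = 0.131). None of SLC43A1, SLC43A2 and NNMT was called, and 40.2% of all tested genes had CPM ranges that did not overlap between the groups.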
